A study of Mus musculus with 8 samples.

Results

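The complement system was examined in aged fast-twitch muscle through 9 of its genes, *C1qa*, *C1qb*, *C1qc*, *C1ra*, *C3*, *C4b*, *Cfb*, *Serping1* and *Cd55*, which were taken by symbol from the 16686 genes of the deposited table. All 9 were found, and all 9 passed the filter on low counts that left 12542 genes for testing. RNA came from the tibialis anterior (TA) muscle, a fast-twitch muscle of the lower hind limb, of male mice on the FVBN background at 22 months of age, with 4 wild-type mice (WT Old) and 4 mice lacking fast myosin binding protein-C (C2-/- Old). In the C2-/- Old mice a Neo cassette between LoxP sites stands in place of exons 2 to 22 of *Mybpc2*, in every cell of the body, and no other allele or treatment is given for either group. A growth entry in the labels gives another age for these mice. One library was made per mouse from the whole muscle, so that fibres, connective tissue, vessels and resident immune cells were read together. The name C2-/- refers to *Mybpc2*, and the complement gene *C2*, which is described further down, was intact in both groups.

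Complement is a cascade of plasma and tissue proteins that tags material for removal. In the classical pathway the recognition protein C1q, built from the chains of *C1qa*, *C1qb* and *C1qc*, binds a target and activates its serine proteases C1r and C1s, which cleave C4 and C2. The C3 convertase that results splits C3, the step on which all pathways meet, and factor B (*Cfb*) forms the convertase of the alternative pathway. C1 inhibitor (*Serping1*) blocks C1r and C1s, and CD55, or decay-accelerating factor, takes convertases apart on the cell surface. The liver supplies most circulating complement, whereas C1q is made chiefly by macrophages and related myeloid cells, and fibroblasts make C1r, C1s, C3 and C1 inhibitor locally. FVB mice are known to lack functional C5, the entry to the terminal steps, and its gene *Hc* was not found by that symbol in the deposited table.

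The libraries held between 25425993 and 29747692 expected counts, and all levels are given as CPM, counts scaled to a common library size after TMM, the trimmed mean of M values in edgeR. The targeted gene *Mybpc2* was at 4964 to 7392 CPM in WT Old and at 3.85 to 38.3 CPM in C2-/- Old, the highest of the latter in replicate 3. Fast fibre genes were high in every mouse, with *Atp2a1*, the fast calcium pump, at 49967 to 68567 CPM, and the hepatocyte marker *Alb* had no more than 2 counts in any library. WT Old replicates 2 and 4 and C2-/- Old replicate 2 had between 70.9 and 245 CPM of the immediate early gene *Fos*, and the other mice had at most 7.80 CPM. Fits without the mice high in *Fos* kept WT Old replicates 1 and 3 and C2-/- Old replicates 1, 3 and 4. WT Old replicate 2 also stood apart in the neutrophil gene *S100a8*, with 12.8 CPM against at most 1.19 CPM in any other mouse. Fewer cells of a type and less RNA per cell cannot be told apart in such samples.

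Promoter sequence was at hand for 5 of the 9 genes in the RefSeq table for GRCm38.p6, and no entry was found for *C1qa*, *C4b*, *Cfb* and *Serping1*. The 250 bases before the transcription start are shown for *C1qb* and *C1qc*, neighbours whose RNA varied together between mice, for *C3*, which varied with *C1qb*, and for *C1ra*, whose correlations with them stayed low. Sequences run 5′ to 3′ on the coding strand of each gene. Capitals mark a match to GAGGAAGT, a form of the PU.1 motif, in *C1qc*, and matches to TTNNGNAA, a loose form of the C/EBP motif, in *C3* and *C1ra*, on either strand, and *C1qb* holds neither.
C1qb (minus strand, chr4:136886201-136886450): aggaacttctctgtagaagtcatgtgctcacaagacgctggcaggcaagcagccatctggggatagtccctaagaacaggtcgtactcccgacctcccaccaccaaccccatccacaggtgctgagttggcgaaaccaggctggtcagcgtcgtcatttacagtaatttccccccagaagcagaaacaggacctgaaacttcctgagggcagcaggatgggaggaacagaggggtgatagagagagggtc
C1qc (minus strand, chr4:136892915-136893164): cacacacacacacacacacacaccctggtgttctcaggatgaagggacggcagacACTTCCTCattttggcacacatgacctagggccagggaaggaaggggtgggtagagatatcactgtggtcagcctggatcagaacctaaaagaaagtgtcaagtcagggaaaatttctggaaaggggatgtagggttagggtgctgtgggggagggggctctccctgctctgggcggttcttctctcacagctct
C3 (minus strand, chr17:57228137-57228386): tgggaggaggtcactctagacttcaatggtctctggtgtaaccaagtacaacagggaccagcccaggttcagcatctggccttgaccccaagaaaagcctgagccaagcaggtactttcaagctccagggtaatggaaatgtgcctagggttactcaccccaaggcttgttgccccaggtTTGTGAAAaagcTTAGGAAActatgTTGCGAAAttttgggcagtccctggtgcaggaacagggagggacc
C1ra (plus strand, chr6:124512371-124512620): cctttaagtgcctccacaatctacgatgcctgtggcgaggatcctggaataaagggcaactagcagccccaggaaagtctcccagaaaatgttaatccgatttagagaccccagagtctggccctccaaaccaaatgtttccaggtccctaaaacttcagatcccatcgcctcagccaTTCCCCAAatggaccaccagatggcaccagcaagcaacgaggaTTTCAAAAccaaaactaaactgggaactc

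The *C3* window held 3 matches to TTNNGNAA within its last 70 bases, starting at positions -70, -58 and -45 counted from the transcription start, and 2.61% of the 32851 promoters in the table held as many. A single match or more was found in 36.8% of all promoters, and *C1ra*, with matches at -72 and -29, is an ordinary case by that count, as is *C1qc*, with 1 match at -81 that is left in lower case above. The *C1qc* window held the letters GAGGAAGT on the opposite strand at -195, a match found in 2.44% of promoters, and those letters are not in the *C1qb* window. The interferon elements GAS (TTCNNNGAA) and ISRE and the letters TATAAA, which 7.02%, 2.98% and 12.4% of promoters hold, are not in the windows of *C1qb*, *C1qc*, *C1ra*, *C3* and *Cd55*. Such matches describe letters and are no evidence of binding.

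The 3 C1q chains lie side by side within 18.7 kb of chromosome 4, from 136880145 to 136898844. *C1qa* (gene ID 12259) was expressed at 4.36, 11.7, 9.15 and 5.25 CPM in WT Old replicates 1 to 4 and at 8.52, 7.89, 11.1 and 8.60 CPM in C2-/- Old replicates 1 to 4. The highest mouse was a WT Old mouse, replicate 2, and the 2 lowest were WT Old replicates 1 and 4, so that the groups overlapped. WT Old averaged 7.62 ± 3.45 CPM and C2-/- Old 9.03 ± 1.44 CPM (± SD, n = 4 mice each). The log2 fold change, C2-/- Old over WT Old throughout, was 0.24 (SE 0.29, 95% interval -0.40 to 0.88, adjusted p = 0.975 by the quasi-likelihood test of edgeR, with the Benjamini-Hochberg method over all tested genes).

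*C1qb* (gene ID 12260) had the largest difference of the 9 genes on the log2 scale. Its levels were 4.78, 9.19, 7.84 and 5.86 CPM in WT Old and 6.32, 7.70, 14.2 and 8.29 CPM in C2-/- Old. Replicate 3 of C2-/- Old was above every other mouse, and the remaining C2-/- Old mice lay within the range of WT Old. The log2 fold change was 0.40 (SE 0.28, 95% interval -0.22 to 1.01, adjusted p = 0.968 by edgeR), and it was 0.10 without C2-/- Old replicate 3. *C1qc* (gene ID 12262) was at 6.29, 8.97, 7.13 and 5.54 CPM in WT Old and at 5.45, 7.07, 10.3 and 7.45 CPM in C2-/- Old. The lowest and the highest mouse were both C2-/- Old mice, and the log2 fold change was 0.12 (SE 0.22, 95% interval -0.36 to 0.60, adjusted p = 0.987 by edgeR). Without C2-/- Old replicate 3 it was -0.07.

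The chains were close to each other in level per kilobase of transcript. Of the sum of the 3 chains on that scale, *C1qa* took a median of 37.2% over the 8 mice (30.3% to 44.2%), *C1qb* 33.7% (31.1% to 40.4%) and *C1qc* 27.7% (24.5% to 37.8%). Their summed level ranged 2.31-fold between mice, from 15.4 CPM in WT Old replicate 1 to 35.6 CPM in C2-/- Old replicate 3. The SD within each genotype was larger than the gap between the means. The sums averaged 21.5 ± 6.78 CPM among WT Old and 25.7 ± 6.80 CPM among C2-/- Old mice (± SD, n = 4 each).

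**Figure D1:**
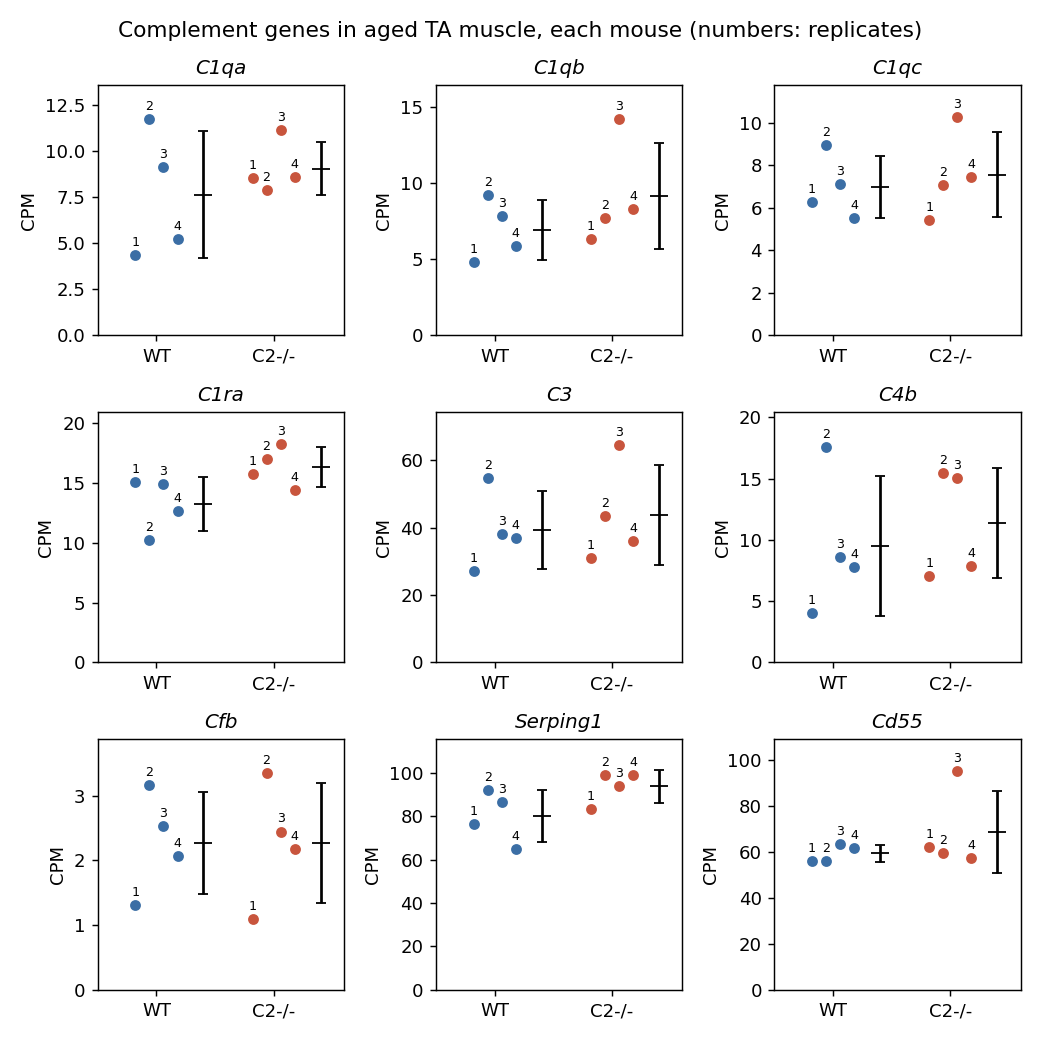
Expression of each of the 9 complement genes in CPM (y axes from 0) in each WT (blue) and C2-/- (red) mouse of 22 months, with replicate numbers beside the points and the mean ± SD (n = 4) in black. The groups overlap in every panel, replicate 3 of C2-/- lies highest for *C1qb*, *C1qc*, *C1ra*, *C3* and *Cd55*, and WT replicate 2 is the highest mouse for *C1qa* and *C4b*.

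*C1ra* (gene ID 50909, chromosome 6, 124512621 to 124523440) encodes the protease C1r. It was at 15.1, 10.2, 14.9 and 12.6 CPM in WT Old and at 15.7, 16.9, 18.2 and 14.4 CPM in C2-/- Old. Of the C2-/- Old mice, 1, replicate 4, lay below the highest WT Old mice, and the other 3 were above all of WT Old. With means of 13.2 ± 2.28 CPM and 16.3 ± 1.65 CPM (SD, n = 4 each), *C1ra* had the smallest unadjusted p of the 9 genes. Its log2 fold change was 0.31 (SE 0.15, 95% interval -0.03 to 0.64, unadjusted p = 0.0671, adjusted p = 0.968 by edgeR), and with each mouse left out in turn it stayed between 0.21 and 0.38. Without the 3 mice high in *Fos*, a choice made after seeing the data, it was 0.11. Reads of its near copy *C1rb* were few, and with both genes summed the log2 fold change was 0.31 with an unadjusted p of 0.0580 by edgeR.

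*C3* (gene ID 12266, chromosome 17, 57203967 to 57228136) encodes the central component. Its levels were 27.0, 54.8, 38.1 and 36.8 CPM in WT Old and 31.0, 43.4, 64.4 and 36.0 CPM in C2-/- Old. Both groups held low and high mice, with replicate 2 highest in WT Old and replicate 3 highest in C2-/- Old. For *C3* the log2 fold change was 0.16 (SE 0.26, 95% interval -0.41 to 0.73, adjusted p = 0.983 by edgeR), and it was -0.09 without C2-/- Old replicate 3.

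*C4b* and *Cfb* lie with the complement gene *C2* on chromosome 17 within 154 kb, in the class III region of the major histocompatibility complex. *C4b* (gene ID 12268, 34728036 to 34743901), which encodes C4, was at 4.05, 17.5, 8.59 and 7.82 CPM in WT Old and at 7.08, 15.4, 15.1 and 7.87 CPM in C2-/- Old. The lowest and the highest of the 8 mice, 4.33-fold apart, were both WT Old mice. Its log2 fold change was 0.26 (SE 0.41, 95% interval -0.65 to 1.17, adjusted p = 0.983 by edgeR) and ranged from 0.0054 without WT Old replicate 1 to 0.74 without WT Old replicate 2. The near copy *C4a* had at most 3 counts in any mouse. *Cfb* (gene ID 14962, 34856374 to 34882114) was the least abundant of the 9 genes, at 1.31, 3.17, 2.54 and 2.06 CPM in WT Old and 1.10, 3.35, 2.45 and 2.18 CPM in C2-/- Old, from 29 to 90 counts per mouse. Replicate 1 was lowest and replicate 2 highest in either group. These are different mice, linked in the labels by number alone. The means were 2.27 ± 0.785 and 2.27 ± 0.926 CPM (SD, n = 4 each) and the log2 fold change was -0.0021 (SE 0.36, 95% interval -0.80 to 0.79, unadjusted p = 0.995 by edgeR). Its exons share up to 513 bases with those of another annotated gene on the same strand, *Gm20547*, and the interval deposited for *Cfb* also holds that of *C2*, so that reads of these genes may have been split.

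*Serping1* (gene ID 12258, chromosome 2, 84765072 to 84775444), which encodes C1 inhibitor, was the most abundant of the 9 genes. It was at 76.6, 92.4, 86.9 and 65.1 CPM in WT Old and at 83.3, 99.2, 94.0 and 99.2 CPM in C2-/- Old. Of the C2-/- Old mice, 3 were above every WT Old mouse and replicate 1 was not. The log2 fold change was 0.23 (SE 0.13, 95% interval -0.06 to 0.52, unadjusted p = 0.111, adjusted p = 0.968 by edgeR). *Cd55* (gene ID 13136, chromosome 1, 130391475 to 130463021) was nearly level in 7 of the 8 mice. It was at 56.1, 56.1, 63.4 and 61.6 CPM in WT Old and at 62.0, 59.4, 95.1 and 57.5 CPM in C2-/- Old, where replicate 3 stood far above the rest. The log2 fold change of *Cd55* was 0.21 (SE 0.17, 95% interval -0.16 to 0.58, adjusted p = 0.968 by edgeR) with all mice and 0.0075 without C2-/- Old replicate 3. On the opposite strand, exons of *Gm16083* share up to 102 bases with those of *Cd55*, and strand-aware counting is not stated.

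Over the 9 genes, 8 had a positive and 1 a negative log2 fold change, and their median was 0.23, beside 45.8% of all tested genes with a positive value and a median of -0.02. Without C2-/- Old replicate 3, 6 of the 9 were positive with a median of 0.09, and without WT Old replicate 1, 8 were positive with a median of 0.07. In the quasi-likelihood test of edgeR, 0 of the 9 had an unadjusted p under 0.05, beside 5.29% of all tested genes (3.38% higher and 1.91% lower in C2-/- Old). With an adjusted p under 0.05 and a change above 1.5-fold, 0 of the 9 were called, beside 4 of all tested genes, or 0.0319%. The groups overlapped for all 9, whereas 3.38% of all tested genes had no overlap, 2.03% with C2-/- Old higher and 1.36% with it lower. At the unadjusted threshold DESeq2's Wald test and limma-voom likewise picked 0 of the 9, and limma-voom with sample quality weights picked 1, *Serping1* (unadjusted p = 0.0185, adjusted p = 0.669 by limma). The intervals leave room for sizeable differences, since at a fold scale the upper bounds ran from 1.43 for *Serping1* to 2.25 for *C4b* and the lower bounds from 0.576 for *Cfb* to 0.982 for *C1ra*. These p-values set the difference between the genotypes against the spread between mice, each with its own library.

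Among the other genes of the pathway, a list of 50 symbols, 38 were in the table and 24 passed the filter on low counts. Of these 24, 20 had a positive and 4 a negative log2 fold change, with a median of 0.31. Higher in C2-/- Old at an unadjusted p under 0.05 were 4 of them, or 16.7%, beside 3.38% of all tested genes, and 0 had an adjusted p under 0.05 by edgeR. The groups overlapped for all 24. The median was 0.18 without the mice high in *Fos*. The count of 4 ranged from 0 without WT Old replicate 4 to 7 without a filter on low counts.

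Those 4 genes belong to different steps. *C1s1*, which encodes the protease C1s and together with *C1ra* spans 29.8 kb of chromosome 6, was at 9.25, 7.92, 10.7 and 6.66 CPM in WT Old and at 10.4, 11.6, 11.1 and 12.1 CPM in C2-/- Old. Its groups touched only where WT Old replicate 3 exceeded C2-/- Old replicate 1. The log2 fold change of *C1s1* was 0.39 (SE 0.16, unadjusted p = 0.0326, adjusted p = 0.914 by edgeR). *Colec12*, a scavenger receptor of the collectin family, had 4.94 ± 0.986 CPM in WT Old and 6.75 ± 1.22 CPM in C2-/- Old (SD, n = 4 each; log2 fold change 0.45, adjusted p = 0.919 by edgeR). *C2*, the protease that C1s cleaves, had 1.31 ± 0.464 and 2.09 ± 0.467 CPM (SD, n = 4 each; log2 fold change 0.68, adjusted p = 0.941 by edgeR). Without the 3 mice high in *Fos* these differences were smaller, at 0.18 for *C1s1*, 0.24 for *Colec12* and 0.33 for *C2* (unadjusted p = 0.319, 0.319 and 0.380 by edgeR). That fit rests on fewer mice, so its p-values cannot be set against those of all mice.

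*Clu* encodes clusterin, a chaperone that also holds back the terminal complex. It was at 43.7, 38.9, 29.5 and 38.4 CPM in WT Old and at 46.5, 42.8, 75.7 and 45.0 CPM in C2-/- Old, where replicate 3 was again far above the others, as for *Cd55*. Its log2 fold change was 0.48 (SE 0.20, adjusted p = 0.918 by edgeR), and 0.25 with an unadjusted p of 0.121 by edgeR without that mouse. In the remaining roles the most abundant genes were *Cfd*, *C7*, *Cd59a* and *Cd93*. *Cfd* encodes factor D, the protease that cleaves factor B and a product of fat cells. It varied from 2.95 to 24.6 CPM between mice, with a log2 fold change of 0.80 (SE 0.59, adjusted p = 0.968 by edgeR). This value was 0.51, 0.52 and 0.53 without WT Old replicate 3, C2-/- Old replicate 3 and WT Old replicate 1. Without the mice high in *Fos* it was 2.12 (unadjusted p = 0.0040, adjusted p = 0.831 by edgeR). The WT Old mice kept in that fit, replicates 1 and 3, were the lowest of all in *Cfd*, at 3.62 and 2.95 CPM. *C7*, of the terminal complex, was at 2.72 ± 0.880 CPM in WT Old and 3.77 ± 1.43 CPM in C2-/- Old (SD, n = 4 each). *Cd59a*, the membrane inhibitor of the terminal complex, was at 42.1 ± 4.23 and 42.5 ± 12.0 CPM, and *Cd93*, an endothelial surface protein once described as a C1q receptor, at 38.8 ± 2.84 and 35.5 ± 7.95 CPM (SD, n = 4 each).

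**Figure D2:**
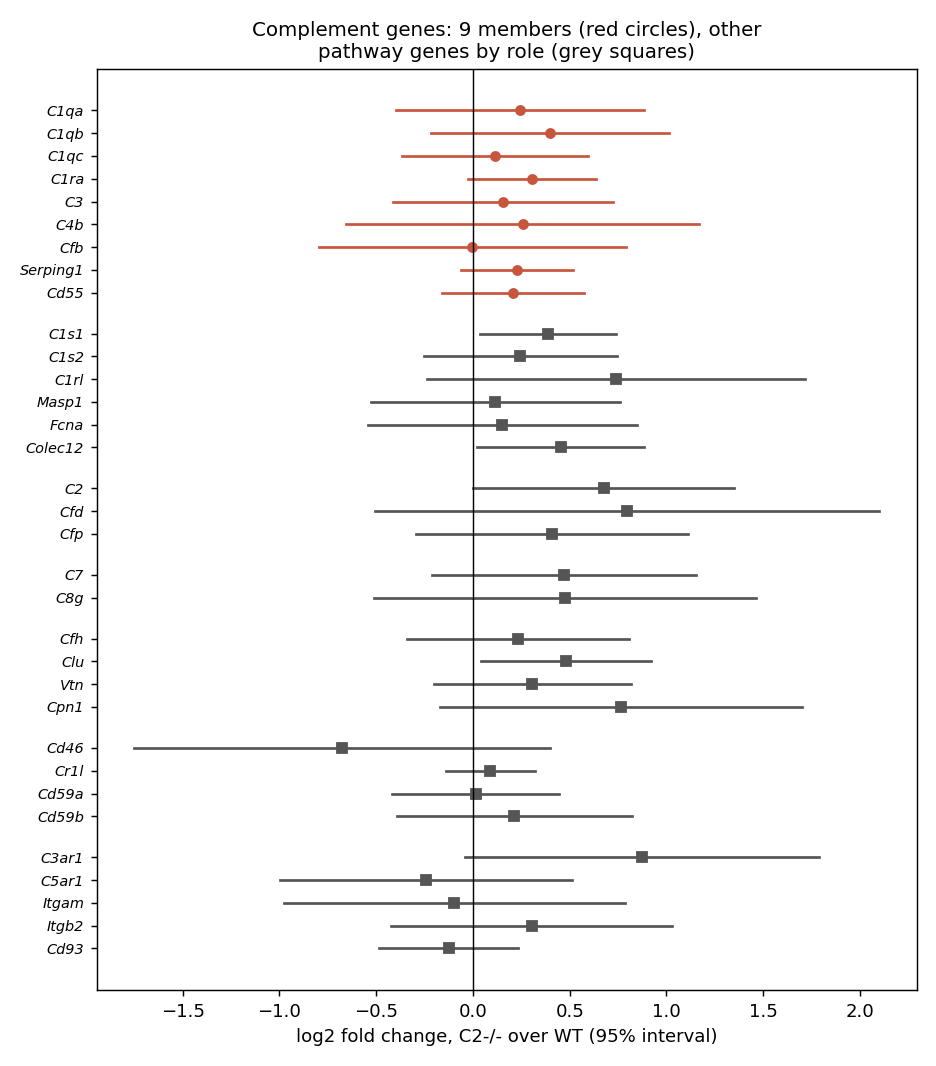
Log2 fold change of C2-/- over WT (x axis) with its 95% interval for the 9 complement genes (red circles) and the 24 other tested genes of the pathway (grey squares), grouped from top to bottom as initiation, core and alternative pathway, terminal, soluble regulators, membrane regulators and receptors. The intervals of all 9 genes include 0, and those of *C1s1*, *Colec12*, *C2* and *Clu* lie just above 0.

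The levels of different genes were compared per kilobase of the longest protein-coding transcript in GENCODE vM21. *Serping1* led with 49.3 ± 6.69 CPM per kilobase (SD, n = 8 mice), above *Cd55* with 25.2 ± 5.09 in 8 of 8 mice, although the ranges of the 2 genes touched through C2-/- Old replicate 3. *Cd55* was above *C3* in every mouse with no overlap. *C3* (8.07 ± 2.43), *C1qa* (8.01 ± 2.46), *C1qb* (7.37 ± 2.64), *C1qc* (6.05 ± 1.38) and *C1ra* (4.95 ± 0.832) followed as a group whose neighbours overlapped, and *C3* exceeded *C1qa* in 4 of 8 mice. *C1ra* was above *C4b* (1.94 ± 0.905) in every mouse with no overlap, and *C4b* was above *Cfb* (0.825 ± 0.289) in 8 of 8 mice. Per length, RNA of the inhibitors *Serping1* and *Cd55* was thus above that of the 7 components in every mouse of both genotypes. This holds for these 9 genes only. Other membrane regulators of the pathway varied widely, with means of 42.3 CPM for *Cd59a*, 17.2 CPM for *Cr1l* and 0.65 CPM for *Cd46*. They were not compared per length.

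**Figure D3:**
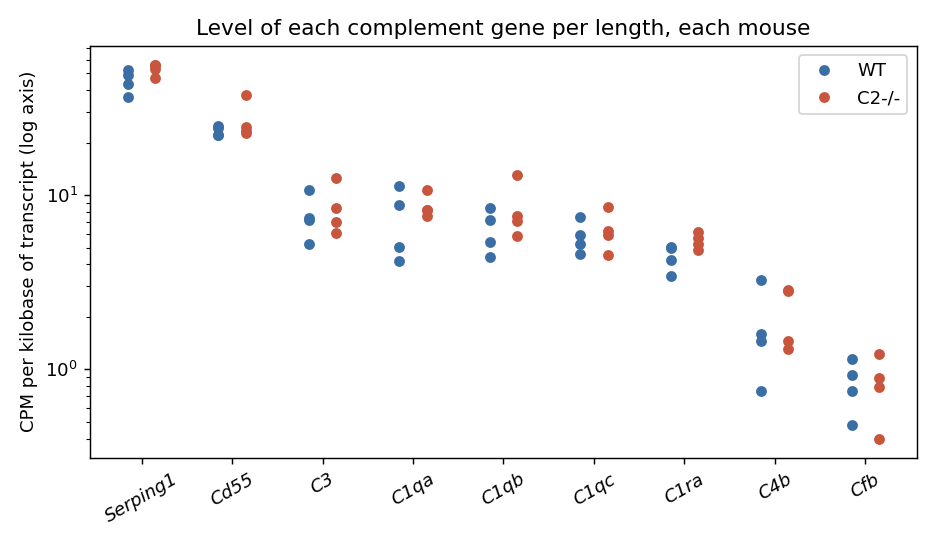
Level of each complement gene in CPM per kilobase of transcript (log y axis) in each WT (blue) and C2-/- (red) mouse, in descending order of the mean. *Serping1* and *Cd55* lie above 20 in every mouse and *Cfb* between 0.399 and 1.22, with *C3*, the C1q chains and *C1ra* overlapping in between.

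The genes differed in how steady they were. The SD of log2 CPM within the genotypes, pooled, was 0.74 for *C4b* and 0.59 for *Cfb*, larger than that of 94.3% and 89.3% of the tested genes. It was 0.18 for *Serping1* and 0.21 for *C1ra*, larger than that of 24.9% and 35.5%. *C1qa*, *C1qb* and *C3* lay between, with 0.49, 0.46 and 0.44.

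For some pairs of the 9 genes this variation ran together between mice. Across the 8 mice, log2 CPM was correlated for all 36 pairs of the 9 genes, and after Benjamini-Hochberg adjustment over the 36 pairs 4 had p under 0.05 for Pearson's r in the two-sided exact permutation test, 3 of them also for Spearman's rho. These pairs were *C1qa* with *C1qb*, *C1qb* with *C1qc*, *C3* with *C4b* and, by r alone, *C1qb* with *C3*. By rho alone *C4b* and *Cfb* passed as well, with rho of 0.929 (exact permutation p = 0.00223, adjusted p = 0.0402) and r of 0.820 (exact permutation p = 0.0126, adjusted p = 0.0757), and r of 0.706 without the 2 farthest mice. For *C3* and *C4b*, r was 0.910 (exact permutation p = 0.00122, adjusted p = 0.0241) and rho was 0.905 (exact permutation p = 0.00456, adjusted p = 0.0411), and r was 0.946 without the 2 mice farthest from the median of *C3*. For *C1qb* and *C1qc*, r was 0.890 (exact permutation p = 0.00241, adjusted p = 0.0289) and rho was 0.905 (exact permutation p = 0.00456, adjusted p = 0.0411), with r of 0.978 without the 2 farthest mice. For *C1qa* and *C1qb*, r was 0.848 (exact permutation p = 0.00526, adjusted p = 0.0473) and rho was 0.929 (exact permutation p = 0.00223, adjusted p = 0.0402), with r of 0.713 without the 2 farthest mice. For *C1qb* and *C3*, r was 0.913 (exact permutation p = 0.00134, adjusted p = 0.0241) and rho was 0.786 (exact permutation p = 0.0279, adjusted p = 0.144), with r of 0.708 without the 2 farthest mice. How many pairs of other genes would pass was not computed. Genes outside the pathway, picked as the closest of 11390, reached r of 0.93 to 0.99 with single members. Whether such variation is particular to complement genes was not tested.

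Over the 15 pairs among *C1qa*, *C1qb*, *C1qc*, *C3*, *C4b* and *Cfb*, a set picked after the values were seen, r ran from 0.51 to 0.91. With the mean of each genotype subtracted it ran from 0.56 to 0.94, so that the shared variation was also there within genotypes. The other 3 genes had lower values in part. For *C1ra*, r was between -0.20 and 0.57 against the other 8 genes, for *Serping1* between 0.16 and 0.72, and for *Cd55* between 0.10 and 0.73. Because the set was picked by these values, its range and the place of *C1ra* outside it follow from the choice. Not every pair within it passed the adjustment, as *C1qc* and *C4b* show (r = 0.697, exact permutation p = 0.0547, adjusted p = 0.152). The 4 pairs that passed for r lay among the C1q chains, *C3* and *C4b*. Whether the correlations of *C1ra* differed from the others was not tested.

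**Figure D4:**
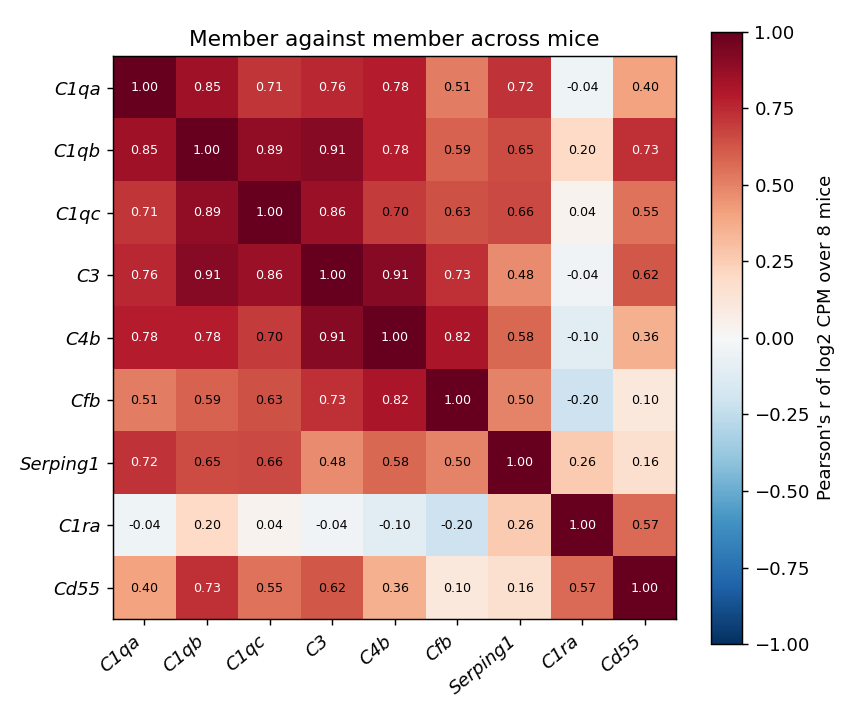
Pearson's r of log2 CPM over the 8 mice for each pair of the 9 complement genes (colour from -1 to 1, value in each cell). *C1qa*, *C1qb*, *C1qc*, *C3* and *C4b* form a block of high values, with *Cfb* closest to *C4b* and *C3*, and the row of *C1ra* stays at or below 0.57.

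Marker genes of other cell types were read beside these genes. Of the 14 macrophage markers, 11 were tested, 8 with a positive and 3 with a negative log2 fold change and 0 with an unadjusted p under 0.05 in the edgeR test. Their summed level was 37.0 to 83.3 CPM in WT Old and 55.2 to 89.2 CPM in C2-/- Old, and none was at 0 throughout. The 3 mice with the lowest sums of C1q chains, WT Old replicates 1 and 4 and C2-/- Old replicate 1, had the lowest macrophage sums, and the 2 highest, WT Old replicate 2 and C2-/- Old replicate 3, had the highest. Among 11390 genes with a mean above 1 CPM, the one closest to *C1qa* in log2 CPM over the 8 mice was *Lyz2* (r = 0.99), which encodes the lysozyme of myeloid cells and is itself on that list. The next closest to *C1qa*, *Dpp3* (r = 0.97), is not on it. Neither are the genes closest to *C1qb* and *C1qc*, which are named further down.

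Of 36 correlations between the 9 genes and the mean log2 CPM of the macrophage, fibro-adipogenic progenitor, endothelial, and neutrophil and blood lists, 5 had an adjusted p under 0.05 for r and 0 for rho. How often genes outside the pathway reach such values was not computed. *C1qb* (r = 0.924, exact permutation p = 0.000744, adjusted p = 0.0268; rho = 0.786, exact permutation p = 0.0279, adjusted p = 0.265; r = 0.897 without the 2 farthest mice) was closest to the macrophage level. *C3* was next (r = 0.867, exact permutation p = 0.00414, adjusted p = 0.0404; rho = 0.857, exact permutation p = 0.0107, adjusted p = 0.265; r = 0.847 without the 2 farthest mice). *C1qa* and *C4b*, both with r = 0.851, were the other 2 on this list, and their r was 0.524 and 0.778 without the 2 farthest mice.

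The fifth pair joined *C1ra* to the fibro-adipogenic progenitor list, the matrix-producing cells of muscle (r = 0.897, exact permutation p = 0.00332, adjusted p = 0.0404; rho = 0.714, exact permutation p = 0.0576, adjusted p = 0.346). Without the 2 mice farthest from the median of *C1ra*, r was 0.597. All 11 genes of that list had a positive log2 fold change, 4 with an unadjusted p under 0.05 (3.38% of all tested genes were higher at that threshold), 0 with an adjusted p under 0.05 by edgeR, and 5 without overlap between the groups (2.03% of all tested genes). Their summed level was 810 to 1006 CPM in WT Old and 1090 to 1353 CPM in C2-/- Old. Its most abundant gene, *Gsn*, was at 405 ± 41.2 and 555 ± 70.3 CPM (SD, n = 4 each; log2 fold change 0.45, adjusted p = 0.640 by edgeR). The largest log2 fold changes on that list were 1.38 for *Col3a1* and 1.30 for *Col1a1* (adjusted p = 0.755 and 0.608 by edgeR). The part of these lists in the levels of *C1ra*, *C1s1* and *Serping1* was not tested.

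**Figure D5:**
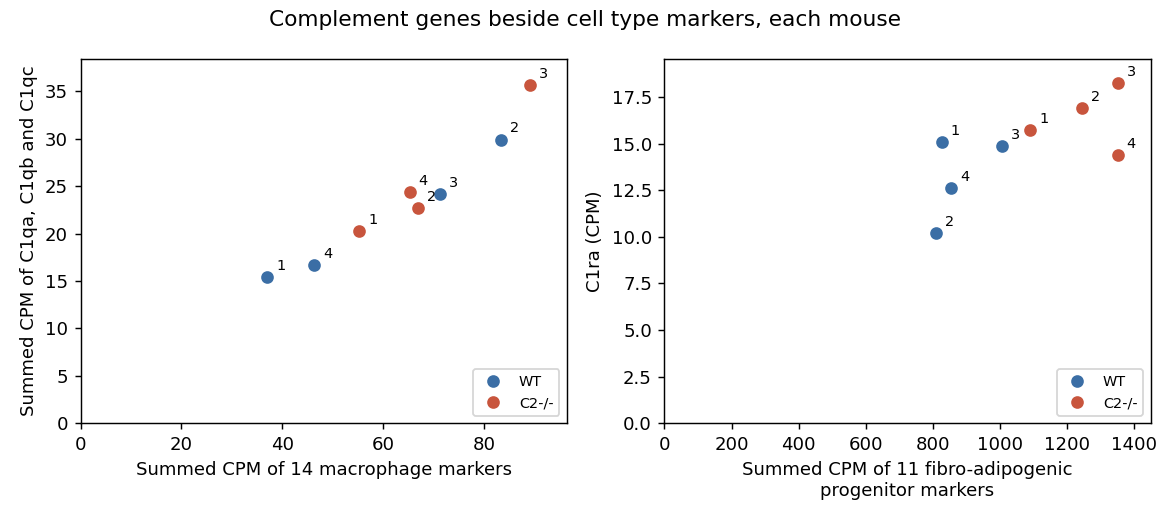
Left, summed CPM of *C1qa*, *C1qb* and *C1qc* (y axis) against summed CPM of 14 macrophage markers (x axis) in each mouse, and right, *C1ra* in CPM against summed CPM of 11 fibro-adipogenic progenitor markers, with WT in blue, C2-/- in red and replicate numbers beside the points. The C1q sum climbs from 15.4 to 35.6 CPM with the macrophage sum while WT and C2-/- mice are interspersed, whereas on the right all C2-/- mice lie to the right of all WT mice.

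Counts for the other lists place these cell types beside the complement genes. Of the endothelial markers 4 had a positive and 4 a negative log2 fold change, of the adipocyte markers 4 and 1, of the tendon markers 7 and 1, of the Schwann cell markers 1 and 4, of the neutrophil and blood genes 1 and 5, and of the immediate early genes 0 and 8. Of the 8 lymphocyte markers 1 passed the filter on low counts, *Cd79a*, with a log2 fold change of 1.90 (adjusted p = 0.884 by edgeR), and of the hepatocyte markers 0 did. Of the 9 tested interferon-stimulated genes 7 had a positive log2 fold change, 2 of them with an unadjusted p under 0.05 by edgeR, beside 3.38% of all tested genes in that direction. Of the fibre genes 2 had a positive and 7 a negative value. At an unadjusted p under 0.05 by edgeR, 3 of the 6 tested neutrophil and blood genes were lower (*S100a8*, *S100a9* and *Retnlg*), as was 1 fibre gene, *Myh7*, beside 1.91% of all tested genes, and 1 tendon gene, *Tnmd*, was higher. None of these lists had a gene with an adjusted p under 0.05 by edgeR.

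The genes most like each of the others, by Pearson's r of log2 CPM over the 8 mice among the same 11390 genes, were *Washc4* and *Otog* for *C1qb*, *Rnf185* and *Gins4* for *C1qc*, *Lin7a* and *Thy1* for *C1ra*, *Irf9* and *Dars* for *C3*, *Dnajb11* and *Erbin* for *C4b*, *Skil* and *Rrp8* for *Cfb*, *Nadsyn1* and *Gltp* for *Serping1*, and *Zfp937* and *Smox* for *Cd55*, with *Dpp3* second for *C1qa*. Values of r ran from 0.93 to 0.99 and are the highest of very many. *Smox*, spermine oxidase, shared the single high mouse of *Cd55*, with 549 CPM in C2-/- Old replicate 3 against 118 to 224 CPM elsewhere.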

How the data were processed

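Expected counts per gene, not normalized, were deposited by the authors for one library per mouse. Clean reads had been aligned with HISAT to GRCm38.p6, and featureCounts 1.5.2 is named for the counting; the submitters' processing notes also list Bowtie2 and DESeq2. Between 5.50% and 6.53% of a library's values are not whole, so counts were rounded. The 16 columns of other per-mouse values, 6 of group means and 3 of the authors' own comparison (fold change, p and q) were not used. Of 16687 rows, 16686 had a gene ID and counts. Totals of 25425993 to 29747692 put 3 counts at 0.101 to 0.118 CPM, which covers counting error only.

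Genotypes were compared with edgeR 4.0.16 (R 4.3.3; quasi-likelihood test, TMM, default filter, Benjamini-Hochberg adjustment), and called above 1.5-fold with adjusted p under 0.05. Scripts were tested on simulated data. Alternatives were RLE factors, limma-voom (limma 3.58.1), DESeq2 1.42.0, other filters, unrounded counts, paralogs summed, total-count CPM, a replicate block and each mouse left out. Members and lists were chosen with earlier results of these data known. Named were all 9 genes, other pathway genes with unadjusted p under 0.05 or the highest mean of their role, and the 2 genes most like each member; marker lists are mostly given as counts. No 2 libraries shared more than 0.749% identical counts. Python 3.11.15 and scipy 1.17.1 did the rest.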

Additional observations from a re-analysis of the deposited data

Results flagged for a closer look

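Within each group of 4 mice, the highest and the lowest value of the 9 genes and of the 4 pathway genes named for an unadjusted p under 0.05 were checked for a mouse that stands far from its group, by Dixon's ratio of the gap to the range (0.829 at 4 samples). Of 26 groups checked, 2 exceeded it, and chance gives about 1 in 20 groups. Both were C2-/- Old replicate 3. *Cd55* was at 95.1 CPM there, while the next C2-/- Old mouse was at 62.0 CPM and the lowest at 57.5 CPM, a ratio of 0.881. *Clu* was at 75.7 CPM there, against 46.5 CPM in the next C2-/- Old mouse and 42.8 CPM in the lowest, a ratio of 0.889. The same mouse had the highest level of *C1qb*, *C1qc*, *C1ra* and *C3*.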

How the results depend on the processing

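Over 18 alternatives for each of the 9 genes, 6 of them kept a positive difference in every one, and the adjusted p of the 9 ran from 0.642 upwards by whichever tool was used. Genes called over the whole table, 4 by edgeR, numbered 38 by DESeq2's Wald test and 4 to 7 with each mouse left out. They numbered 2 without the 3 mice high in *Fos*, a choice made after seeing the data. Of the 9 genes, those with an unadjusted p under 0.05, 0 by edgeR, were 1 by limma-voom with quality weights and 0 to 1 with each mouse left out, *C1ra* or *Serping1* by name. Other pathway genes at that threshold, 4 by edgeR, were 7 without a filter on low counts and 0 to 5 with each mouse left out. Genes of the marker lists, 12 by edgeR, were 20 without that filter and 7 to 22 with each mouse left out.

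The sign of the *Cfb* difference, -0.0021 by edgeR, turned with RLE factors (0.00097), DESeq2 (0.0011), no filter (0.0044), 10 counts in every mouse (0.013) and voom quality weights (0.13), and ran from -0.24 to 0.23 with each mouse left out. That of *C1qc* ran from -0.069 to 0.27 and that of *C3* from -0.092 to 0.37, both negative only without C2-/- Old replicate 3. *Cd59a*, 0.014, was at -0.028 by limma-voom, -0.00043 with quality weights and -0.091 without the mice high in *Fos*, and ran from -0.13 to 0.18. *Cd93* ran from -0.25 to 0.0041. The causes were not tested.

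The labels link mice of equal replicate number by that number alone. Their deviations correlated at 0.27, 0.04, -0.05 and 0.02, and those of unequal number at -0.23 to 0.20. With a replicate block, 4 genes were called, 660 had an unadjusted p under 0.05, and these were 0 of the 9 genes, 3 other pathway genes and 16 marker genes, while *Cd59a* was at -0.025. Counts of 29 to 90 for *Cfb* limit its precision.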
